A study of Mus musculus with 35 samples.

Results

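The clustered protocadherins are cell surface adhesion proteins encoded by neighbouring gene clusters, named alpha, beta and gamma, on mouse chromosome 18. Each variable exon of these clusters has its own promoter, and a single neuron switches on only a small, largely random set of them, whereas the C-type isoforms at the end of the alpha and gamma clusters are made by many neurons. Promoter choice is known to involve the insulator protein CTCF, the cohesin ring and DNA methylation, and the proteins bind their own kind on neighbouring membranes, which lets a neuron tell its own processes from those of other cells. Alpha and gamma variable exons are spliced to constant exons shared by their cluster, while each beta gene is a single exon with no constant part.

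Members were all genes in the deposited striatum table whose symbol begins with Pcdha, Pcdhb or Pcdhg and whose mean level over all mice was at least 0.2 CPM (the count of a gene per 1000000 counts of its library). All 57 genes with such a symbol passed this floor, of 22099 genes in the table. They were 14 alpha genes (12 alternate genes and the C-type Pcdhac1 and Pcdhac2), 21 beta genes and 22 gamma genes (12 of subfamily A, 7 of subfamily B and the C-type Pcdhgc3, Pcdhgc4 and Pcdhgc5). The members nearest to the floor were Pcdhb1, at a mean of 0.498 CPM, and Pcdhb21, at 1.80 CPM, and no gene with such a symbol lay below it. All 57 were among the 17639 genes that passed the expression filter of the test. Pcdhb22 was not analysed here.

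The study asked whether lowering huntingtin outside the brain changes signs of Huntington's disease in the brain. Striatal RNA was sequenced from 35 female mice of strain C57BL6/J, 1 library per mouse, aged 299 to 304 days. The wild-type mice (Htt +/+) fell into 6 given saline, 5 given control ASO and 6 given Htt ASO. The heterozygous knock-in mice (Htt Q111/+), which carry an expanded CAG repeat in one copy of the mouse Htt gene, fell into the same treatments with 6 mice in each, and all injections were intraperitoneal, weekly, from 2 to 10 months of age. An ASO is an antisense oligonucleotide, a short strand that binds an RNA and leads to its destruction. The dose of either ASO was 50 mg/kg, and that of saline 4 µL/g. The Htt ASO targets the RNA of both alleles, the control ASO matches no mouse sequence, and given by this route the ASOs were meant to act outside the brain.

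Total counts per mouse ranged from 32200158 to 38641924, of which the members took 0.116 to 0.14%. The right hemistriatum was used in all mice but 1, a wild-type mouse on Htt ASO labelled as left. The number after the letter L in the sample titles was read as the sequencing lane, which the labels do not state. Of 6 such lanes, 5 held both genotypes and lane 7 held 6 Htt Q111/+ mice and no wild-type mouse. Htt itself, listed under its older symbol Hdh, had a median of 91.9 CPM on control ASO and 84.0 on Htt ASO in wild-type mice, and of 74.4 and 73.3 CPM in Htt Q111/+ mice, and Htt ASO differed from control ASO over both genotypes by a log2 difference of −0.077 (limma, adjusted p = 0.967). The tissue label fitted its markers, since 10 genes that mark medium spiny neurons, the main striatal neuron, summed to 7762 to 8994 CPM in wild-type mice, against at most 82.8 CPM for 7 markers of cortical excitatory neurons. Markers of the choroid plexus, at a median of 68.2 CPM in wild-type mice, reached 1567 CPM in 1 of them.

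Levels of the members differed widely within the striatum. Per kilobase of the longest annotated transcript, the median level was 0.857 CPM per kb over 13 alpha genes with a known length, 1.86 over the 21 beta genes and 7.29 over the 22 gamma genes. The C-type genes Pcdhgc5 (33.4 CPM per kb) and Pcdhgc3 (28.3 CPM per kb) had the highest levels of all, followed by Pcdhga6 (16.0 CPM per kb). Within the alpha cluster the C-type gene Pcdhac2 (8.96 CPM per kb) stood above every alternate gene, the nearest of which was Pcdha12 (2.61 CPM per kb). Pcdhb9 (5.83 CPM per kb), Pcdhb20 (5.54) and Pcdhb17 (4.42) led the beta cluster, and Pcdhb1 was the lowest member of any cluster (0.193). The 3 clusters together summed to between 1157 and 1402 CPM per mouse.

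The first comparison was that of Htt Q111/+ with wild-type mice. Summed beta expression, in CPM by library totals, was higher in every Htt Q111/+ mouse than in any wild-type mouse. The lowest, median and highest sums were 145, 162 and 186 CPM in wild-type mice (n = 17) and 191, 213 and 228.5 CPM in Htt Q111/+ mice (n = 18), a 1.3-fold difference (log2 0.38, against a standard deviation between mice of one group of 0.067). The alpha sum was 107, 121 and 132 CPM in wild-type mice and 131, 139.7 and 148 CPM in Htt Q111/+ mice (log2 0.20, standard deviation 0.052). Its ranges overlapped by a small margin, and 17 of 18 Htt Q111/+ mice lay above the highest wild-type mouse. The gamma sum was 862, 930.4 and 1026 CPM in wild-type mice and 897, 999 and 1045 CPM in Htt Q111/+ mice (log2 0.10, standard deviation 0.061), and these ranges overlapped. With library sizes scaled by TMM, as in the tests of single genes, the log2 difference was 0.16 for alpha and 0.34 for beta. For gamma it was 0.062, about the standard deviation between mice. Whether the beta ranges stay apart under TMM was not examined. The sums were not tested. RSEM, which produced the counts, divides a read that fits several genes among them. A sum over a cluster does not change when reads are divided differently within it. It can change when reads are divided with genes outside the cluster, which was not tested.

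**Figure D1:**
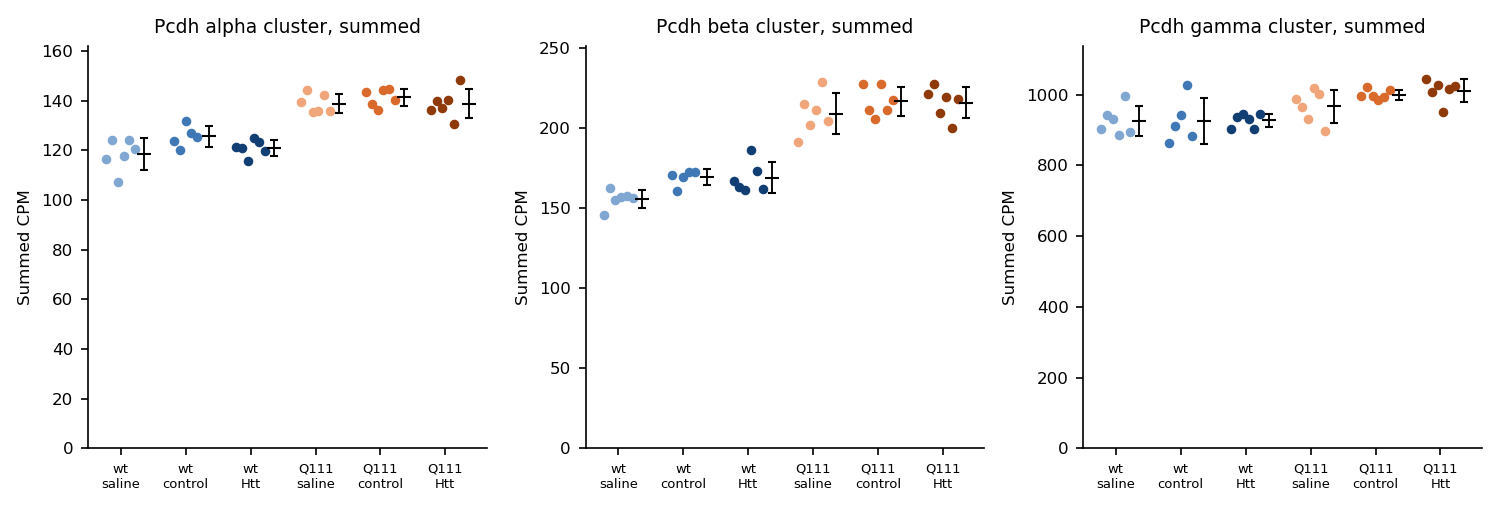
Summed CPM of the alpha, beta and gamma clusters (vertical axes, starting at 0) in each mouse (points) of the 6 groups, with the group mean and standard deviation (black bars). The Htt Q111/+ mice lie at 191 to 228.5 CPM for the beta sum, above all wild-type mice at 145 to 186 CPM, while the gamma sums of the genotypes overlap.

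Among single genes, 33 of the 57 members were higher and 5 lower in Htt Q111/+ mice averaged over treatments, and 19 did not pass the test (limma after voom, adjusted p under 0.05 over all 17639 genes). Called members made up 66.7%, beside 39.8% of all genes tested (21.8% higher and 18% lower). The median log2 difference was 0.20 over the members and 0.0037 over all genes tested. By cluster, 8 alpha genes were higher and 2 lower (71.4% called, median log2 0.23), and 17 beta genes were higher and 1 lower (85.7%, median 0.33). In the gamma cluster 8 genes were higher and 2 lower (median 0.075), and the 45.5% called lay close to the 39.8% of all genes tested. In bulk tissue, fewer cells of a type and less RNA per cell cannot be told apart.

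The genotypes did not overlap for 6 members, all higher in Htt Q111/+ mice, where 1.59% of all genes tested were higher in every Htt Q111/+ mouse than in any wild-type mouse. They were Pcdhb3, Pcdhb9, Pcdhb17, Pcdhb20, Pcdhga2 and Pcdhga4. These ranges are of CPM by library totals and were not examined under TMM. Under all 3 treatments, 17 members were called higher, beside 4.4% of all genes tested: Pcdha4, Pcdha7 and Pcdha9 of the alpha cluster, 10 beta genes, and Pcdhga1, Pcdhga2, Pcdhgb1 and Pcdhga4 of the gamma cluster.

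**Figure D2:**
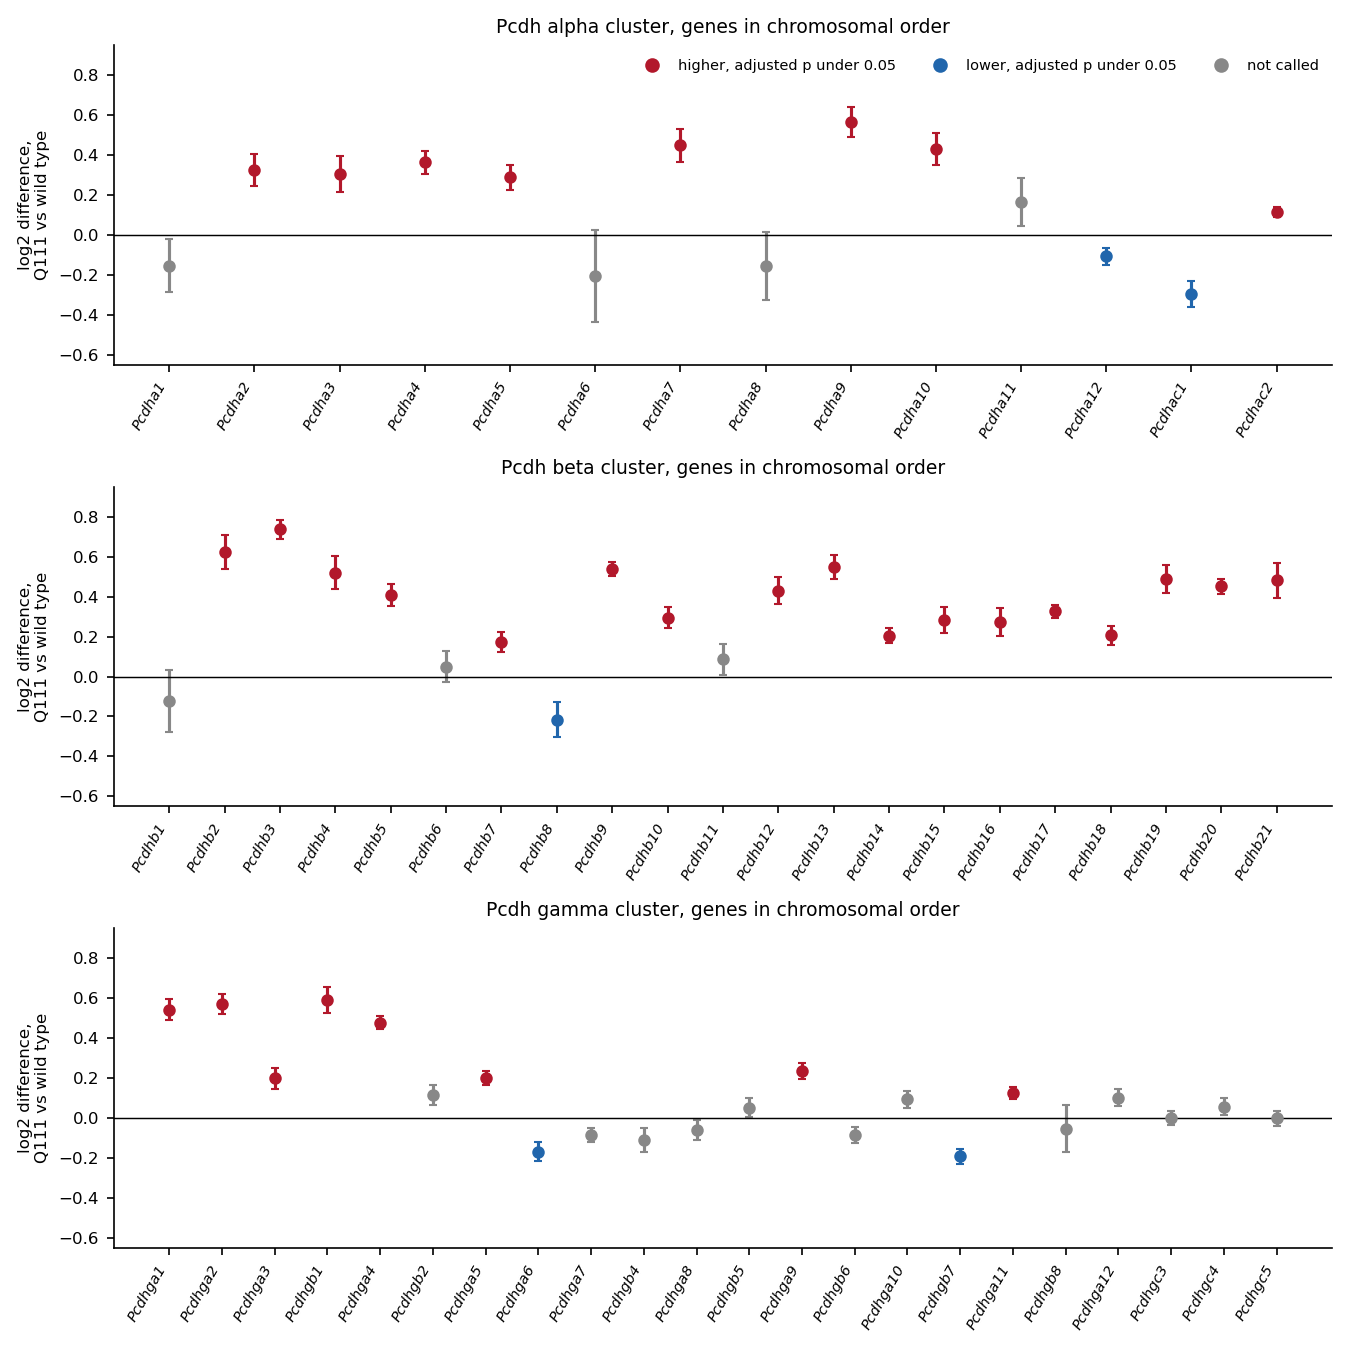
Log2 difference of Htt Q111/+ from wild-type mice averaged over treatments (vertical axis) for every member in chromosomal order, with its standard error. Red points were called higher, blue points lower and grey points neither. The beta genes lie mostly above 0, the gamma genes above 0.4 are Pcdhga1, Pcdhga2, Pcdhgb1 and Pcdhga4, and Pcdhgc3 and Pcdhgc5 lie close to 0.

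In the alpha cluster, whose proteins share a constant cytoplasmic end, the clearest difference was that of Pcdha9. Its level was 2.70, 4.22 and 6.12 CPM (lowest, median and highest) in wild-type mice and 4.22, 6.71 and 7.74 CPM in Htt Q111/+ mice, with 14 of 18 Htt Q111/+ mice above the highest wild-type mouse (log2 0.57, standard error 0.076, adjusted p = 1.92e-07). The genotypes overlapped at their edges for this gene, as they did for Pcdha4, which was 8.32, 10.4 and 12.2 CPM in wild-type mice and 10.9, 13.9 and 16.2 CPM in Htt Q111/+ mice (log2 0.36, standard error 0.055, adjusted p = 2.09e-06). Pcdha7 (log2 0.45, adjusted p = 3.87e-05) and Pcdha10 (log2 0.43, adjusted p = 3.60e-05) were also higher, as were Pcdha2, Pcdha3 and Pcdha5, at log2 differences of 0.29 to 0.33. Pcdha12, the most abundant alternate alpha gene, was called lower, and this call was lost in 6 of 9 alternatives (log2 −0.11, adjusted p = 0.0461).

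The single alpha genes carry a limit of their own. Only 0.612% of their values were exactly whole as deposited, with no tolerance, beside 55.6% of all values. A median of 39.9% of their 50-base words occurred in no other gene, so reads of one alternate gene could be assigned to another. For Pcdha4 this share was 9.9%, with 54.8% of its words shared within the alpha cluster and 35.3% shared elsewhere. Reads of Pcdha4 could therefore also be divided with genes outside the cluster, which was not tested. The alternate alpha genes summed to 58.6 to 77.3 CPM in wild-type mice and 71.7 to 88.4 CPM in Htt Q111/+ mice.

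In the beta cluster, whose proteins have no shared cytoplasmic end, 17 of 21 genes were higher. Pcdhb3 had the largest log2 difference of any member. It was 4.28, 4.86 and 6.02 CPM in wild-type mice and 6.73, 8.62 and 11.0 CPM in Htt Q111/+ mice (log2 0.74, standard error 0.049, adjusted p = 2.78e-14). No Htt Q111/+ mouse fell within the wild-type range. Pcdhb9 was 12.5, 14.3 and 15.4 CPM in wild-type mice and 18.1, 21.6 and 24.8 CPM in Htt Q111/+ mice (log2 0.54, standard error 0.033, adjusted p = 5.23e-15). Pcdhb20 was 13.6, 16.3 and 19.3 CPM in wild-type mice and 19.8, 23.2 and 25.8 CPM in Htt Q111/+ mice (log2 0.45, standard error 0.036, adjusted p = 2.87e-12). Both were apart between genotypes, as was Pcdhb17, where the gap was narrow, with 19.7 CPM in the highest wild-type mouse and 20.1 CPM in the lowest Htt Q111/+ mouse (log2 0.33, standard error 0.033, adjusted p = 4.96e-10). For Pcdhb13, 17 of 18 Htt Q111/+ mice lay above the highest wild-type mouse (log2 0.55, standard error 0.059, adjusted p = 2.71e-09).

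The beta genes that were not called included genes of middle level. Pcdhb2 (mean 2.25 CPM, log2 0.62) and Pcdhb21 (mean 1.80 CPM, log2 0.48) were higher, whereas Pcdhb6 (mean 7.74 CPM) and Pcdhb11 (mean 7.47 CPM) had log2 differences of 0.048 and 0.087 that did not pass the test, and Pcdhb1 one of −0.12 with a 95% confidence interval from −0.44 to 0.19. Pcdhb8, named here after its value was seen, was the only beta gene called lower (log2 −0.22, adjusted p = 0.0494), and its call was lost in 3 of 9 alternatives. Beta genes were the least affected by shared sequence, with a median of 96.3% of their 50-base words in no other gene and none under 88%. Still, only 15.8% of their values were exactly whole.

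**Figure D3:**
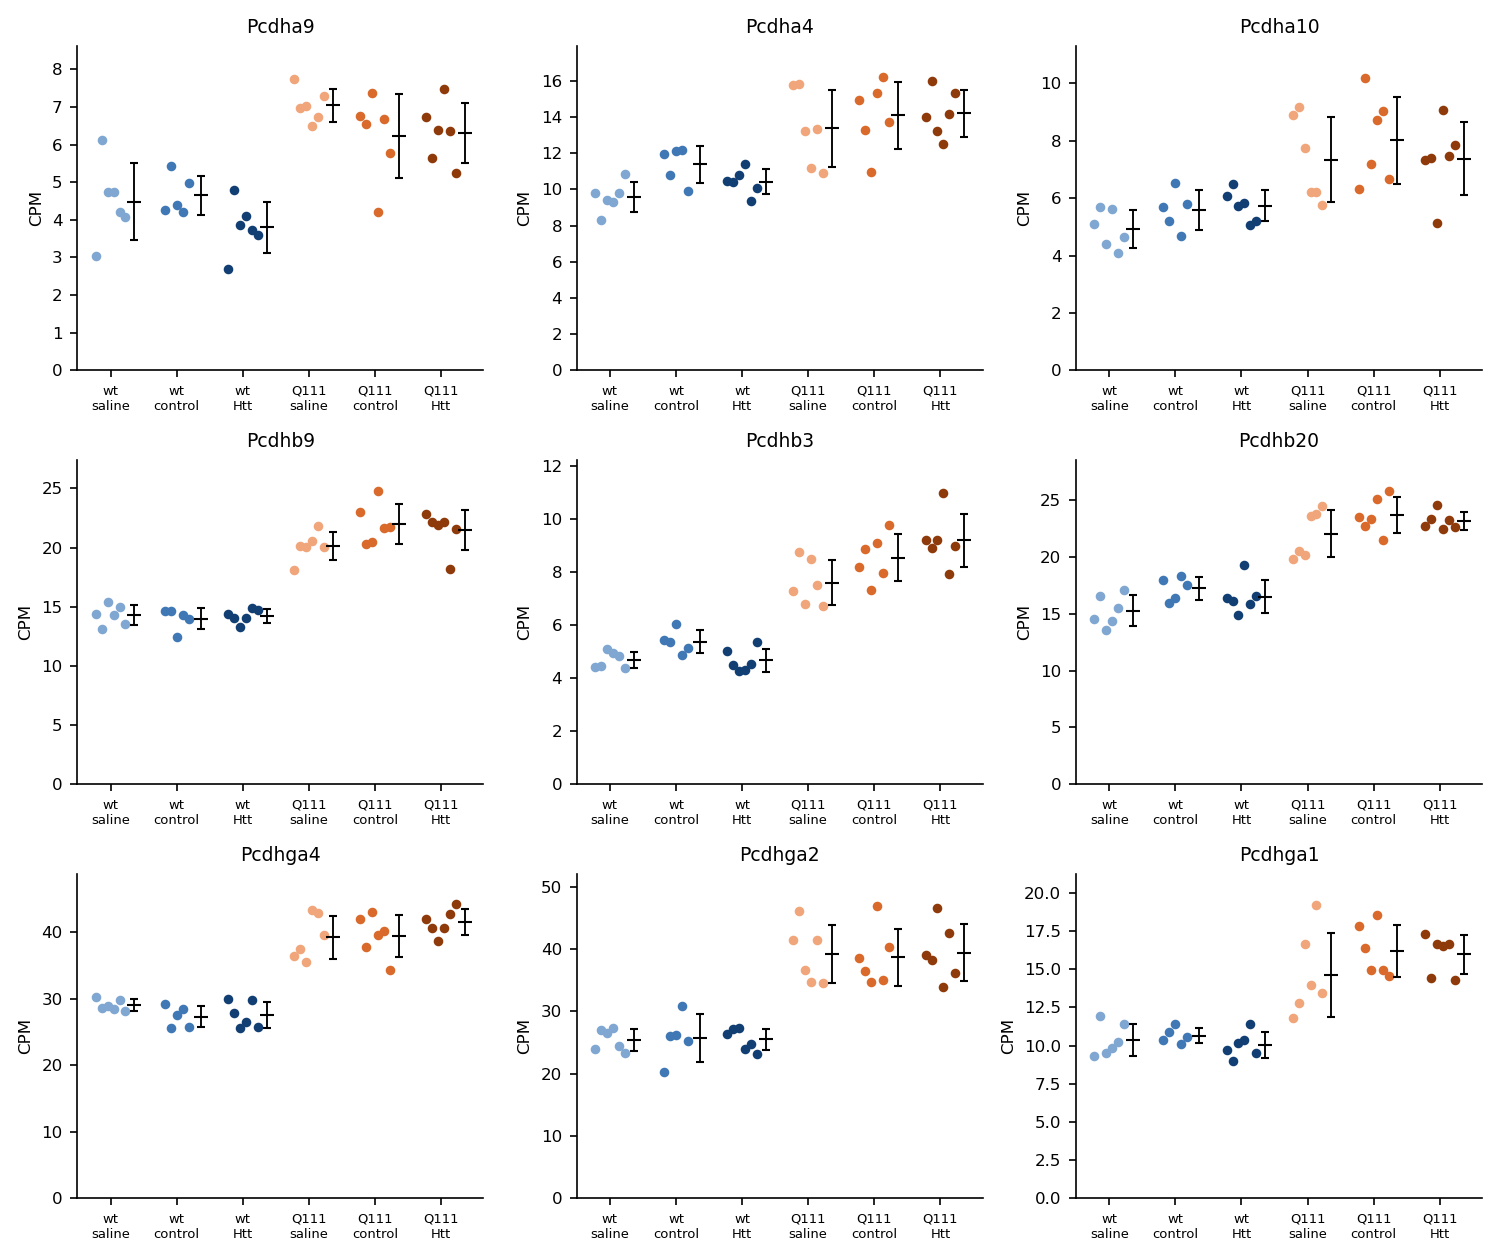
CPM (vertical axes, starting at 0) in each mouse (points) of the 6 groups for the 3 members of each cluster with the smallest p for genotype, with the group mean and standard deviation (black bars). Htt Q111/+ mice lie above all wild-type mice for Pcdhb9, Pcdhb3, Pcdhb20, Pcdhga4 and Pcdhga2, and overlap them for Pcdha9, Pcdha4, Pcdha10 and Pcdhga1.

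In the gamma cluster, 10 of 22 genes were called (45.5%, close to the 39.8% of all genes tested), of which 5 lie at the start of the gene array. These first 5 genes in chromosomal order, Pcdhga1, Pcdhga2, Pcdhga3, Pcdhgb1 and Pcdhga4, were all called higher, at log2 differences of 0.20 to 0.59. Pcdhga4 was 25.6, 28.4 and 30.3 CPM in wild-type mice and 34.3, 40.4 and 44.3 CPM in Htt Q111/+ mice (log2 0.48, standard error 0.032, adjusted p = 4.79e-14). Pcdhga2 was 20.2, 26.1 and 30.9 CPM in wild-type mice and 33.9, 38.4 and 46.9 CPM in Htt Q111/+ mice (log2 0.57, standard error 0.051, adjusted p = 5.16e-11). The genotypes were apart for both. Pcdhga1 (log2 0.54, adjusted p = 3.06e-10) and Pcdhgb1 (log2 0.59, adjusted p = 3.08e-09) overlapped at the edges, with 17 and 14 of 18 Htt Q111/+ mice above every wild-type mouse.

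The other 5 gamma genes that were called had differences of both signs. Pcdhga9 (log2 0.24, adjusted p = 8.26e-06), Pcdhga5 (log2 0.20) and Pcdhga11 (log2 0.13) were higher. Pcdhga6, the most abundant subfamily A gene, was lower (log2 −0.17, adjusted p = 0.00362), at a median of 81.4 CPM in wild-type mice and 74.1 CPM in Htt Q111/+ mice, and so was Pcdhgb7 (log2 −0.19, adjusted p = 5.09e-05). The ranges overlapped for both genes. The remaining 9 genes of subfamilies A and B did not pass the test.

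The first 5 gamma genes, a grouping made after their values were seen, summed to 101 to 122 CPM in wild-type mice (median 110.4) and 142 to 166.5 CPM in Htt Q111/+ mice (median 155), which is a description of that choice. Their mean share of the gamma sum was 11.9% in wild-type and 15.5% in Htt Q111/+ mice. The other genes of subfamilies A and B summed to a median of 514 CPM in wild-type and 534 CPM in Htt Q111/+ mice, with overlapping ranges. Of the 50-base words of gamma genes, a median of 55.6% occurred in no other gene (34.7% for Pcdhga4), so the split of reads between single gamma genes has the same limit as in the alpha cluster.

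**Figure D4:**
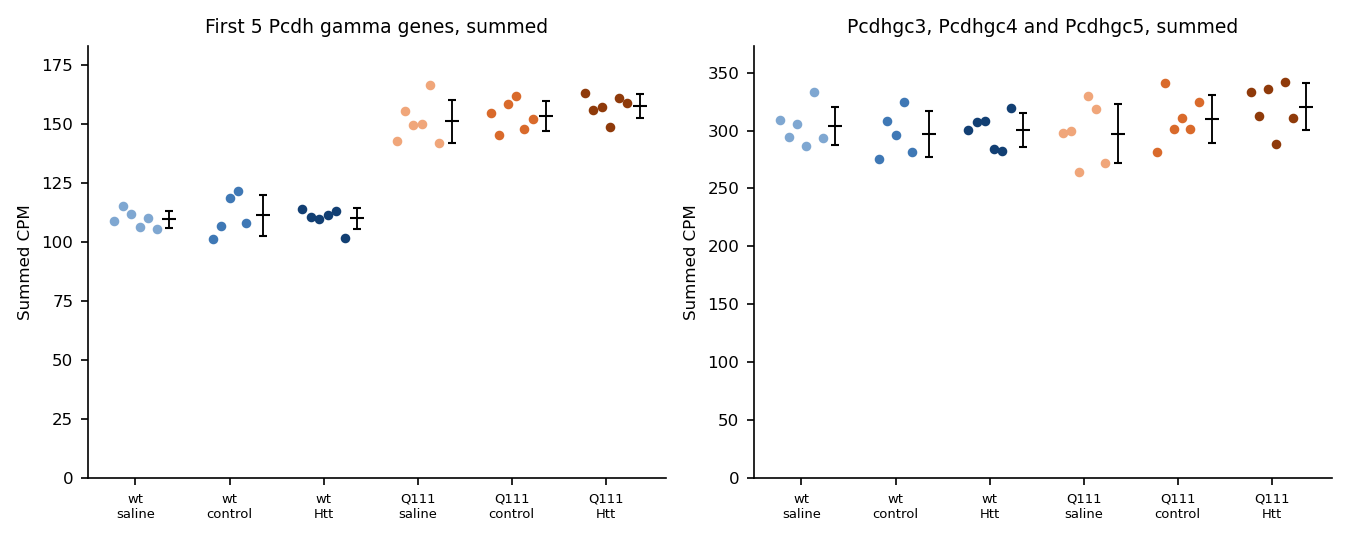
Summed CPM (vertical axes, starting at 0) of the first 5 gamma genes in chromosomal order and of the 3 C-type gamma genes in each mouse (points) of the 6 groups, with the group mean and standard deviation (black bars). The first 5 genes lie at 101 to 122 CPM in wild-type and 142 to 166.5 CPM in Htt Q111/+ mice, and the C-type sums overlap.

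The 5 C-type genes, whose promoters are not chosen at random, differed from one another. Pcdhac2, the main C-type alpha isoform and one that serotonin neurons depend on, was 44.9, 50.2 and 54.1 CPM in wild-type mice and 52.6, 55.6 and 61.1 CPM in Htt Q111/+ mice (log2 0.12, standard error 0.024, adjusted p = 1.74e-04). Pcdhac1 went the other way, at 3.85, 4.82 and 5.94 CPM in wild-type mice and 3.35, 3.95 and 5.16 CPM in Htt Q111/+ mice (log2 −0.29, standard error 0.064, adjusted p = 3.18e-04). The ranges of both genes overlapped. Pcdhgc4, the gamma isoform needed for the survival of cortical interneurons, did not pass the test (log2 0.056, 95% confidence interval −0.031 to 0.14). Pcdhgc3 had a log2 difference of −0.00052 (95% confidence interval −0.071 to 0.070) and Pcdhgc5 one of −0.0024 (95% confidence interval −0.077 to 0.072), and the sign of both turned when library sizes were not scaled by TMM (0.038 and 0.036, neither called).

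The genotype difference was also taken within lanes, from mean CPM by library totals, without TMM. Treatments were not balanced within lanes and were not taken into account. In the fit, library totals put the median log2 difference of all genes tested at 0.043, beside 0.0037 with TMM. Within the 5 lanes that held both genotypes, the log2 difference of the sums was 0.15 to 0.31 for alpha, 0.28 to 0.47 for beta and 0.063 to 0.14 for gamma. Of the 33 members called higher, 30 were above 0 in all 5 lanes, and of the 5 called lower, 3 were below 0 in all 5. The exceptions were Pcdha3, Pcdhb14 and Pcdhb15, each below 0 in 1 lane, Pcdha12, above 0 in 2 lanes, and Pcdhga6, above 0 in 1 lane. The called members were chosen by a fit that held the same mice, so their signs within lanes are not an independent check. The share of all genes tested that kept their sign was not computed. For Pcdhb3 the within-lane values ran from 0.61 to 0.87 and for Pcdhga4 from 0.42 to 0.65. With lane as a term in the fit, 35 members were called, Pcdha12 and Pcdhb8 no longer among them, and without the 6 mice of lane 7, 37.

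Markers of the medium spiny neuron moved with genotype. Of 10 such markers, 9 were lower and 1 (Tac1, the precursor of substance P) was higher in Htt Q111/+ mice, none was at 0, and their sum was 7762 to 8994 CPM in wild-type mice and 5451 to 6368 CPM in Htt Q111/+ mice, with no overlap. Their part in the protocadherin differences was not tested. Of the other marker lists, the numbers called lower were 3 of 6 for astrocytes, 4 of 5 for endothelium, 3 of 6 for microglia, 2 of 6 for oligodendrocytes, 1 of 3 for their precursors and 2 of 7 for striatal interneurons, 1 of 7 cortical excitatory markers was called higher, and of 5 choroid plexus markers, 2 blood markers and the serotonin neuron marker Tph2 none passed limma's test. Of all genes tested, 18% were called lower and 21.8% higher, and these lists hold few genes each. The sums of all these other lists overlapped between genotypes.

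Within single treatments, the genotype difference was tested again with fewer mice. On saline 25 members were higher and 1 was lower, together 45.6%, beside 17.4% of all genes tested (8.67% higher and 8.78% lower). On control ASO 26 were higher and 3 lower, together 50.9%, beside 18.5% of all genes tested (10.1% higher and 8.46% lower). On Htt ASO 21 were higher and 3 lower, together 42.1%, beside 21.2% of all genes tested (10.9% higher and 10.2% lower). The number called on control ASO, 29, was 19 without the mice of lane 7. The member called lower on saline was Pcdhga7, and Pcdhac1 and Pcdhgb7 were called lower under both ASOs. For 37 members the log2 difference was above 0 under all 3 treatments (31.6% of all genes tested) and for 7 it was below 0 (28% of all genes tested). From saline to control ASO to Htt ASO, the genotype difference was log2 0.42, 0.36 and 0.35 for the beta sum and 0.063, 0.11 and 0.12 for the gamma sum (standard deviation between mice 0.061).

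Levels by treatment are given for Pcdhb3 and Pcdhga4, whose genotypes were apart over all mice. Pcdhb3 in mice on saline was 4.70 ± 0.30 CPM (SD, n = 6) with the wild-type and 7.59 ± 0.85 CPM (SD, n = 6) with the Htt Q111/+ genotype. In mice on control ASO these values were 5.36 ± 0.43 (SD, n = 5) and 8.53 ± 0.89 CPM (SD, n = 6), and in mice on Htt ASO 4.66 ± 0.43 and 9.20 ± 0.99 CPM (SD, n = 6 each). That the genotypes were apart under each treatment follows from their being apart over all mice, and adds nothing to it. Pcdhga4 in the same order of treatments was 29.0 ± 0.86, 27.3 ± 1.58 and 27.6 ± 1.95 CPM (SD) with the wild-type genotype. With Htt Q111/+ it was 39.2 ± 3.27, 39.5 ± 3.14 and 41.5 ± 1.94 CPM (SD). The same holds for its ranges.

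**Figure D5:**
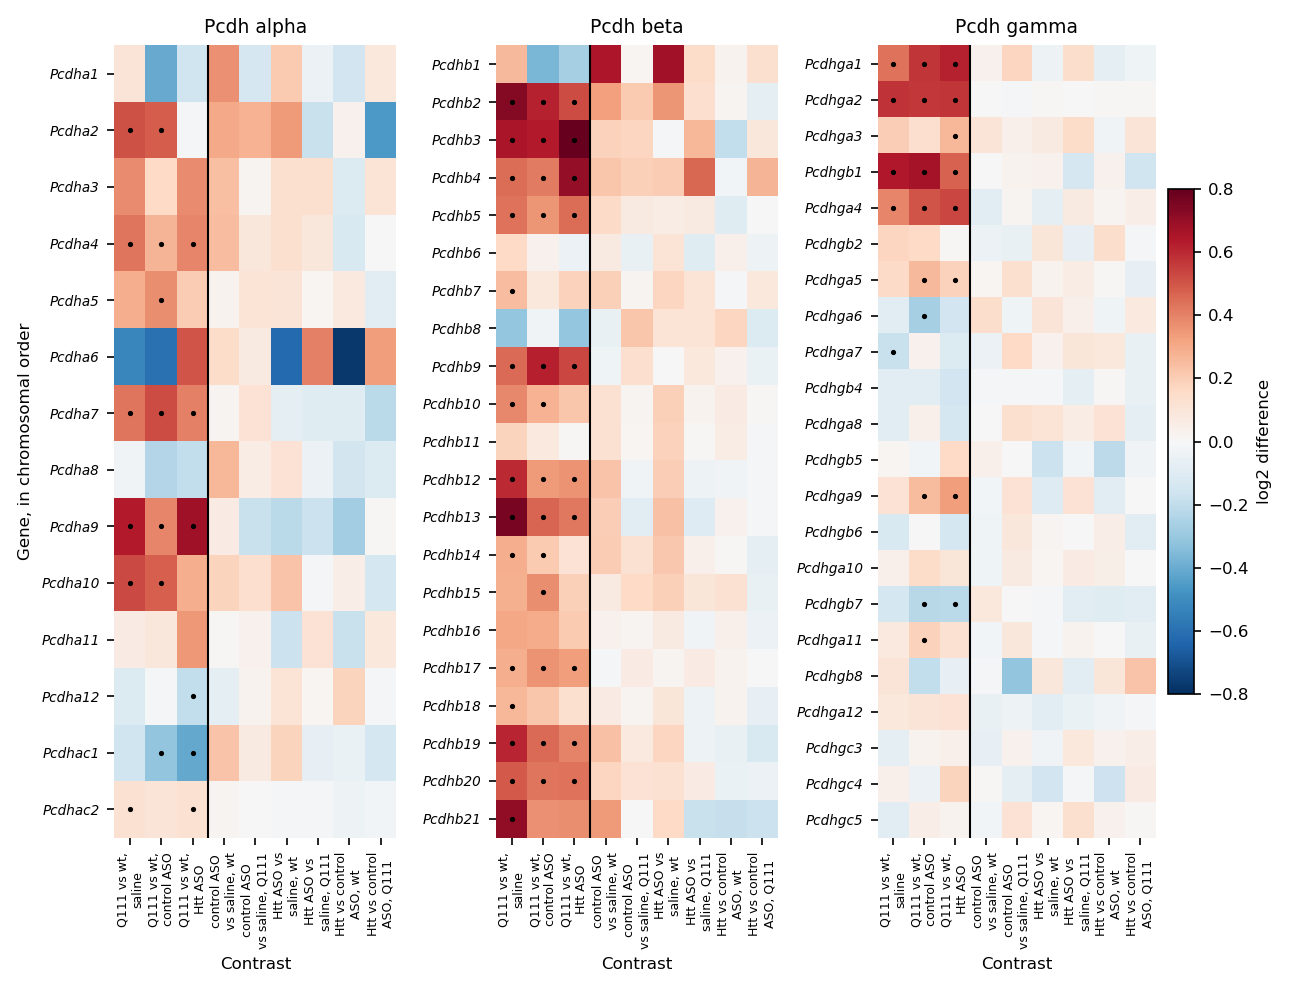
Log2 differences (colour) of every member, in chromosomal order from top to bottom, in the 3 comparisons of genotype within a treatment (left of the line) and the 6 of treatment within a genotype (right of it). Dots mark an adjusted p under 0.05, and they occur in the genotype columns (26, 29 and 24 members) and not in the treatment columns.

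The second question was whether either ASO moved these genes. Between Htt ASO and control ASO, limma called 0 of 57 members (0.935% of all genes tested were called), with 3 at an unadjusted p under 0.05 (6.46% of all genes tested), and edgeR and DESeq2 called 0 as well, with 2 each at an unadjusted p under 0.05. The member with the smallest p was Pcdha2 (log2 −0.21, standard error 0.099, adjusted p = 0.713). Its levels under the 2 ASOs overlapped, at 4.45 to 7.10 CPM on control ASO and 4.55 to 6.11 on Htt ASO in wild-type mice and 6.39 to 8.37 and 4.25 to 7.02 CPM in Htt Q111/+ mice. The beta sum differed by log2 −0.0046, the alpha sum by −0.041 and the gamma sum by 0.011, each less than the standard deviation between mice. That deviation describes single mice and is not the error of a group mean.

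Between Htt ASO and saline, limma called 0 members (beside 1.47% of all genes tested), with 8 at an unadjusted p under 0.05 (9.37% of all genes tested), of which 7 were beta genes with a positive difference. edgeR also called 0, with 8 at an unadjusted p under 0.05, and DESeq2 called 1, Pcdhb4 (log2 0.34, adjusted p = 0.0435). In the limma fit Pcdhb4 had a log2 difference of 0.33 (standard error 0.099, adjusted p = 0.110). It was 1.75 to 2.13 CPM on saline and 1.61 to 2.68 CPM on Htt ASO in wild-type mice, and in Htt Q111/+ mice it was 2.41 to 3.12 CPM on saline and 3.22 to 4.30 CPM on Htt ASO. The groups were apart in Htt Q111/+ mice and overlapped in wild-type mice. No member passed limma's test of Htt ASO against saline within Htt Q111/+ mice (smallest adjusted p = 0.109). The share of all genes apart in this way was not computed.

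Between control ASO and saline, limma called 0 members and 0% of all genes tested, with 6 members at an unadjusted p under 0.05 (7.69% of all genes tested), and edgeR and DESeq2 also called 0, with 8 each at an unadjusted p under 0.05. Pcdhb14 had the smallest p (log2 0.16, standard error 0.048, adjusted p = 0.588). The beta genes leaned one way without passing the test. For control ASO over saline 21 of 21 had a log2 difference above 0 (median 0.11, beside −0.0018 over all genes tested). For Htt ASO over saline it was 20 of 21 (median 0.093, beside −0.0057 over all genes tested). These comparisons share the same saline mice, and the genes share libraries, so their signs are not independent. Against saline, the beta sum differed by log2 0.087 on control ASO and 0.083 on Htt ASO, above its standard deviation between mice of 0.067. The alpha sum differed by 0.056 and 0.015 (standard deviation 0.052), and the gamma sum by 0.024 and 0.035 (standard deviation 0.061). These differences of sums were not tested. The median beta sum on saline was 156.5 CPM with the wild-type and 208 CPM with the Htt Q111/+ genotype, on control ASO 171 and 214 CPM, and on Htt ASO 165 and 218.5 CPM. Within a single genotype, limma called 0 members in each of 6 treatment comparisons, and edgeR and DESeq2 were not run on these. Htt ASO against control ASO gave 4 members at an unadjusted p under 0.05 in wild-type mice (5.19% of all genes tested, with 0.295% called) and 2 in Htt Q111/+ mice (6.43%, with 0.357% called). Htt ASO against saline gave 7 in wild-type mice (10.5%, with 0.726% called) and 2 in Htt Q111/+ mice (6.17%, with 0.556% called). Control ASO against saline gave 7 in wild-type mice (11.8%) and 6 in Htt Q111/+ mice (2.9%), with 0% of all genes tested called in either.

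No interaction of genotype with treatment was called for any member by limma, edgeR or DESeq2, with 2 members at an unadjusted p under 0.05 in each (in limma 5.37% of all genes tested, with 0% called). In limma these were Pcdha2 and Pcdhb3, both at an adjusted p of 0.8775. The genotype difference of Pcdha2 was log2 0.51 with saline, 0.48 with control ASO and −0.0092 with Htt ASO, and that of Pcdhb3 was 0.65, 0.64 and 0.92.

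Genes that act on these clusters were read from a list of 27 regulators of the promoters, of which 25 were tested. In Htt Q111/+ mice 3 were higher, 6 were lower and 16 did not pass the test, and the 36% called lay close to the 39.8% of all genes tested. Wiz, a zinc finger protein that binds at CTCF sites, was higher (log2 0.30, adjusted p = 3.72e-08), as was Tet2, which removes DNA methylation (log2 0.20, adjusted p = 5.63e-07, listed under an older symbol). Tet1, an enzyme of the same family listed as Cxxc6, was lower at a mean of 0.198 CPM (log2 −0.85, adjusted p = 0.0480). Lower too were Dnmt3a, which adds DNA methylation (log2 −0.20, adjusted p = 1.58e-07), Atf7ip, a partner of the histone methyltransferase SETDB1 (log2 −0.22, adjusted p = 7.44e-06), and Ctcf itself (log2 −0.10, adjusted p = 8.14e-05). Zfp143 was lower (log2 −0.099, adjusted p = 0.00679), a call lost with library totals, with lane as a covariate and without lane 7. The 3 cohesin genes Rad21, Smc1a and Smc3 did not pass the test, at log2 differences of 0.035, −0.0054 and 0.029.

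Of 24 partners and effectors of the proteins, 4 were higher, 8 were lower and 12 did not pass the test (50% called, beside 39.8% of all genes tested, of which 21.8% were higher and 18% lower). The alpha and other protocadherins bind the WAVE complex, which builds branched actin, and of its subunits on the list 4 were lower: Cyfip2 (log2 −0.27, adjusted p = 2.09e-13), Abi1 (log2 −0.18, adjusted p = 1.26e-10), Nckap1 (log2 −0.22, adjusted p = 1.65e-09) and Abi2 (log2 −0.14, adjusted p = 3.895e-07). Its subunit Cyfip1 was higher (log2 0.060, adjusted p = 4.07e-04), and Wasf1, Wasf2, Wasf3 and Abi3 did not pass the test. Nlgn1, an adhesion protein of excitatory synapses, was lower (log2 −0.20, adjusted p = 9.16e-08). Marcks, an actin-binding substrate of protein kinase C, was higher (log2 0.36, adjusted p = 6.98e-13), as was Ctnnb1, which encodes beta-catenin (log2 0.071, adjusted p = 1.94e-07).

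Of 12 non-clustered protocadherins, which lie outside the clusters and have promoters of the usual kind, 4 were higher, 1 was lower and 7 did not pass the test, and the 41.7% called lay close to the 39.8% of all genes tested. Pcdh20 was 16.5 ± 1.87 CPM with the Htt Q111/+ genotype (SD, n = 18) and 7.64 ± 0.75 CPM with the wild-type genotype (SD, n = 17) (log2 1.07, adjusted p = 3.80e-17). This difference was larger than that of any clustered gene. Pcdh10 (log2 0.36, adjusted p = 3.73e-14), Pcdh19 (log2 0.45, adjusted p = 0.00364) and Pcdh8 (log2 0.18, adjusted p = 0.00685) were higher, and Pcdh7 was lower (log2 −0.24, adjusted p = 0.00135).

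Of 12 genes that lie beside or between the clusters 11 were tested, 5 were higher, 2 were lower and 4 did not pass the test (63.6% called, beside 39.8% of all genes tested). Hars and Hars2, histidine tRNA ligases before the alpha cluster, were higher (log2 0.098 and 0.091), as were Diaph1, listed as Diap1 (0.10), Hdac3 (0.092) and Fchsd1 (0.23) beyond the gamma cluster. Taf7, a transcription factor subunit that lies between the beta and gamma clusters, was lower (log2 −0.15, adjusted p = 9.26e-04), and Arap3, listed as Centd3, was lower (log2 −0.13, adjusted p = 0.0178), a call lost with library totals. Zmat2 (−0.012, turning to 0.027 with library totals), Rell2 (0.070, called at 0.11 with library totals), Pcdh1 (0.0033) and Pcdh12 (−0.31, at a mean of 0.216 CPM) did not pass the test, and Slc25a2 was too low to be tested. Between Htt ASO and control ASO, limma called 0 genes of the regulator, partner, non-clustered and neighbour lists. Of the marker lists 1 gene was called, the endothelial receptor Tie1, which was higher on Htt ASO (log2 0.31, adjusted p = 0.00147).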

How the data were processed

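Striatal RNA of 35 mice was sequenced from TruSeq Stranded mRNA libraries. Per the processing notes of the submitters, which name mm9, Bowtie 0.12.9 and RSEM 1.1.18, the authors estimated reads per gene from paired reads and deposited these expected counts without scaling. The label ASO1 was taken as Htt ASO.

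CPM used library totals. In R 4.3.3, genes were kept by filterByExpr (minimum count 10, minimum total 15), scaled by TMM and tested with voom and limma 3.58.1 in a model with a mean per group, with Benjamini-Hochberg adjustment over all 17639 genes and a threshold of 0.05. Each library is 1 mouse, so p-values measure the spread between mice. edgeR 4.0.16 and DESeq2 1.42.0 were run on rounded counts. Other alternatives were library totals, 2 other filters, lane, sample weights and leaving out lane 7, the left hemistriatum mouse or each mouse. Code was tested on simulated data. The 85 same-group pairs of libraries differed beyond sampling noise (chi-square per degree of freedom at least 3.57).

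Gene order, lengths and 50-base words came from GENCODE M21 (GRCm38), matched by symbol for 56 of 57 members; Pcdha10 was placed by its number. Named were C-type genes; per cluster, the 3 most abundant members and the 5 with the smallest genotype p; the smallest p per treatment comparison; genes at the floor; all neighbours; and up to 6 called genes of each other list by smallest p. Others were named after their values were seen. Members and lists were chosen with earlier results of these data known.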

Additional observations from a re-analysis of the deposited data

Results flagged for a closer look

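Among 29 genes and sums in the 6 groups (174 groups of 5 or 6 mice), 7 had a highest or lowest mouse whose gap to the next was large for the range of its group by Dixon's 95% limit, where chance gives about 1 in 20. Among wild-type mice on saline, 1 mouse had 174 CPM of Pcdhgc5, with the next at 155.7, and another had 5.43 CPM of Pcdha2, with the next at 4.32. Among wild-type mice on control ASO, 1 mouse had 16.1 CPM of Pcdhb17, below the next at 18.2, and another had a beta sum of 160.4 CPM, below the next at 169. On Htt ASO, 1 wild-type mouse had 18.7 CPM of Pcdhb14, above the next at 15.6, and 1 Htt Q111/+ mouse had 18.2 CPM of Pcdhb9, below the next at 21.5. Among Htt Q111/+ mice on saline, 1 mouse had 62.2 CPM of Pcdhga6, below the next at 71.1. These 7 were different mice. The genotype calls of Pcdha2, Pcdhb9, Pcdhb14, Pcdhb17 and Pcdhga6 held without the mouse in question, and Pcdhgc5 was called neither with nor without it.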

How the results depend on the processing

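Over 9 alternatives the number of members called by genotype ran from 35 to 40, and leaving out each mouse gave 36 to 40. The number called lower, 5, was 3 with library totals, with no filter and with lane as a covariate, and 3 to 6 leaving out each mouse, since Pcdha12 and Pcdhb8 lay near the threshold (each lost in 19 of 35 omissions). Without lane 7, 19 members rather than 29 were called on control ASO; that fit holds fewer mice. For Htt ASO against saline, DESeq2 called 1 member, and 0 to 1 were called leaving out each mouse, where 1 was Pcdhb4 without replicate 3 of Htt Q111/+ mice on control ASO or replicate 5 of wild-type mice on Htt ASO.

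Genes near 0 changed sign without being called. Pcdhgc3 was 0.00017 with edgeR, 0.038 with library totals, 0.00079 with no filter, 0.0056 without the left hemistriatum mouse, 0.011 with sample weights and −0.015 to 0.0096 leaving out each mouse. Pcdhgc5 was 0.036 with library totals, 0.013 with sample weights and −0.019 to 0.015 leaving out each mouse. Pcdh1 was −0.0013 with DESeq2, −0.012 with lane, −0.017 without lane 7 and −0.024 to 0.022 leaving out each mouse, and Zmat2 was 0.027 with library totals. Library totals moved the median of all genes from 0.0037 to 0.043. The cause was not tested.

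The cluster sums kept their sign under TMM scaling (0.16, 0.34 and 0.062 for alpha, beta and gamma), and their other alternatives moved them by less than the spread between mice. Pcdhb1, the member nearest to the floor, had a 95% confidence interval from −0.44 to 0.19, and the cause of this width was not tested. No paired analysis was possible because the labels give no replicate numbers; lane, read from the titles, was fitted as a covariate instead.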

Other observations

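The members differed in how tightly the mice of a group agreed. The coefficient of variation within groups had a median of 16.4% over alpha genes (4.55% for Pcdhac2 to 39.5% for Pcdha6), 13.3% over beta genes and 9.42% over gamma genes (6.42% for Pcdhga4 to 24.3% for Pcdhgb8). Pcdha6 ranged from 0.329 to 4.90 CPM in Htt Q111/+ mice and Pcdha8 from 1.505 to 4.95 CPM, and neither passed the test of genotype.

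Across the 22 gamma genes, place in the array and the genotype log2 difference had a rank correlation of −0.492, against −0.2 across 14 alpha and 0.0273 across 21 beta genes. These are descriptions across genes that share libraries and, in part, reads. The rank correlation of the level per kilobase with the genotype difference was 0.374 across 13 alpha, 0.0766 across 21 beta and −0.255 across 22 gamma genes.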
